A study of Mus musculus with 10 samples.

Results

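Cytosolic ribosomal protein genes were followed in single-cell RNA sequencing of embryonic mouse cortex. The members were all gene symbols of the form Rps or Rpl plus a number, with Rpsa, Rplp0, Rplp1 and Rplp2 and without names holding -ps. They came to 83 of the 31053 genes in the files. Of these, 81 passed the filter on low counts over all cells. Rpl10l and Rpl3l, with 5 and 19 UMIs in all 10 libraries together, did not. Rpl39l passed with 159 UMIs and stayed near 0 in every embryo, and the other 80 members were all above 50 CPM, the UMIs of a gene scaled to a common library total.

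The cortex of 10 embryos at E16.5 was profiled, with 1 10x 3′ library per embryo. The groups were 3 WT embryos (Gatad2b +/+), 4 Het embryos (Gatad2b stop/+) and 3 KO embryos (Gatad2b stop/stop), all on the C57BL/6N-A tm1Brd background. The mutant allele, tm1a(EUCOMM)Hmgu, is a gene-trap cassette in an intron near the start of the coding sequence, present in all tissues. It leaves the exons in place, so that splicing past it remains possible. Gatad2b encodes a subunit of the NuRD chromatin remodelling complex. Its level was 139 CPM, 131 CPM and 133 CPM in WT embryos, 89.8 to 95.6 CPM in Het embryos and 50.9 CPM, 52.8 CPM and 57.3 CPM in KO embryos. KO embryos were thus lower than WT by a log2 fold change of -1.32 (SE 0.0498, adjusted p 1.11e-07), and the groups did not overlap.

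The libraries carry 1 of 2 name prefixes, whose meaning is not stated in the sources used here. WT replicates 1 to 3 and Het replicate 4 share a prefix, and Het replicates 1 to 3 and the 3 KO embryos share the other. WT and KO therefore differ in genotype and in prefix at once, and between them the genotype and the prefix cannot be told apart. KO against Het replicates 1 to 3, and Het replicate 4 against WT, are comparisons within a prefix. Het replicates 1 to 3 against Het replicate 4 compare the prefixes at the same genotype. Other measures moved with the prefix as well. The share of UMIs from Malat1, a nuclear non-coding RNA, was 2.50% to 2.59% in the prefix of WT and 1.79% to 2.08% in the other. The mitochondrial share was 3.67% to 4.00% against 4.30% to 4.67%, and cells of unnamed clusters made up 14.8% to 16.2% against 10.1% to 12.6%. The part of these measures in the differences between prefixes was not tested. Kept cells numbered 65779, total UMIs per embryo ranged from 82872641 to 123737385, and KO replicate 1 had the highest median UMIs per cell. Of the barcodes, 496 were present in more than 1 library.

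Ribosomal proteins are the protein part of the cytosolic ribosome, with Rps genes encoding the small subunit and Rpl genes the large subunit. Each ribosome holds a single copy of nearly all of them, and the acidic stalk proteins Rplp1 and Rplp2 are the exception. Their mRNAs are short and abundant, and many begin with a terminal oligopyrimidine tract, a run of C and T that starts with C at the first base. Through this tract, mTOR signalling and the RNA-binding protein Larp1 control the translation and stability of these mRNAs. Progenitors of the growing cortex make many ribosomes and neurons make fewer. Many members have processed pseudogenes or near-identical copies that can take or share reads. The 9 names with -ps held 0.0376% to 0.042% of the family's UMIs in an embryo.

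The annotated transcription starts of the members on which the comparisons turned are shown because the tract lies there. Each window below holds the 10 bases before the start and the first 20 bases of the transcript, 5′ to 3′, from RefSeq on GRCm38.p6. Capitals mark the longest run of C and T that begins with C within 5 bases of the start.
Rpl38 (chr11:114668570-114668599, plus strand): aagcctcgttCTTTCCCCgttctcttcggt
Rps28 (chr17:33824543-33824572, minus strand): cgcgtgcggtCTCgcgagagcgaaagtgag
Rps21 (chr2:180257369-180257398, plus strand): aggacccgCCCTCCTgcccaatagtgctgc
Rps27 (chr3:90213629-90213658, minus strand): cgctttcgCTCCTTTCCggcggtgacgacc
Rpl39 (chrX:37085203-37085232, minus strand): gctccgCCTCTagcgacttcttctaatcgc
Rps6 (chr4:86857348-86857377, minus strand): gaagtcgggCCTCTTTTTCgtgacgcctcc
Rps18 (chr17:33955646-33955675, minus strand): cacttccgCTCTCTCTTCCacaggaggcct
Rps2 (chr17:24720053-24720082, plus strand): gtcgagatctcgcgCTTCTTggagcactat
Rps10 (chr17:27635225-27635254, minus strand): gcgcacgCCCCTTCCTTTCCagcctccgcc
A run of at least 6 bases was present at any start of 26 of the 63 members found in the table (41.3%), against 11.9% of all 27025 genes in it. Counted per start, 27 of the 75 starts of members held such a run (36%), against 10.2% of all 32851 starts. Transcripts that were lower in KO than in WT (Rpl38, Rps21 and Rps27) and transcripts that were higher (Rps6, Rps18 and Rps10) both held such a run. Rps28 and Rpl39, which were also lower, held shorter ones, and so did Rpl37, Rpl41 and Rpl6, with 3 bases each. Rps29 is not in the table. These are matches of letters at annotated starts, not mapped starts.

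Between KO and WT, short ribosomal protein transcripts were lower and longer ones higher. Of the 81 members tested, 43 differed at an adjusted p under 0.05 by the quasi-likelihood test of edgeR over all genes, where 36.8% of all 17647 genes were called. Higher in KO were 30 members, against a background of 18.9%, and lower were 13, against 17.9%. With equal weight per class the split was 36 higher and 3 lower, against 10.9% of all genes in both directions. The median log2 fold change was 0.09 over the members and -0.01 over all genes. Of the 80 members above 50 CPM, 33 lay higher in every KO embryo than in every WT embryo and 16 lay lower in every one, and 62.8% of all genes at that level were so separated. In sums over all cells, fewer cells of a type and less RNA per cell cannot be told apart. Single embryos moved the counts: 20 members were called without KO replicate 2 (17 higher, 3 lower, background 26%), 20 without WT replicate 3 (14 higher, 6 lower, 26.7%), 23 without WT replicate 2 (29.1%) and 28 without WT replicate 1 (28.9%). The lower calls were 3 without KO replicate 3 and 20 without KO replicate 1 (backgrounds for both directions 29.9% and 28.4%). Rpl38, Rps28, Rps29, Rps6, Rps18, Rps2, Rpl13a, Rpl29 and Rps10 were called without each of the 10 libraries.

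The members that fell most belong to both subunits. Rpl38, a large-subunit protein known from the Tail-short mouse, was at 2349 CPM, 2511 CPM and 2217 CPM in WT, 1546 CPM, 1553 CPM, 1758 CPM and 2231 CPM in Het replicates 1 to 4, and 1739 CPM, 1288 CPM and 1313 CPM in KO. Het replicate 4 lay among the WT embryos, and the other Het embryos lay near KO. The KO against WT difference was -0.71 (SE 0.143, adjusted p 0.0033). Rps28, of the small subunit, was at 2229 CPM, 2385 CPM and 2090 CPM in WT, 1450 CPM, 1444 CPM, 1644 CPM and 2132 CPM in Het replicates 1 to 4, and 1708 CPM, 1284 CPM and 1290 CPM in KO. As for Rpl38, Het replicate 4 lay among the WT embryos and KO replicate 1 was nearest to WT among the KO embryos, and the difference was -0.65 (SE 0.147, adjusted p 0.00608). Rps29, a zinc-binding protein of the small subunit, was at 3208 CPM, 3393 CPM and 3007 CPM in WT, 2153 CPM, 2159 CPM, 2443 CPM and 2915 CPM in Het, and 2480 CPM, 1888 CPM and 1900 CPM in KO. Here Het replicate 4 was just under the lowest WT embryo, and the KO against WT difference was -0.62 (SE 0.125, adjusted p 0.00337).

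Rpl39, which lines the peptide exit tunnel, and Rpl37 followed. Rpl39 was at 2090 CPM, 2152 CPM and 1964 CPM in WT, 1587 CPM, 1535 CPM, 1664 CPM and 2085 CPM in Het, and 1799 CPM, 1315 CPM and 1337 CPM in KO, a difference of -0.48 (SE 0.129, adjusted p 0.014). Rpl37 was at 2632 CPM, 2673 CPM and 2570 CPM in WT, 1977 CPM, 1912 CPM, 2075 CPM and 2699 CPM in Het, and 2286 CPM, 1701 CPM and 1681 CPM in KO, with a KO against WT difference of -0.47 (SE 0.135, adjusted p 0.0178). In both, WT and KO embryos did not overlap and Het replicate 4 stood with WT. Rps21 fell by 0.47 on the log2 scale (adjusted p 0.0234), Rps27 by 0.43 (adjusted p 0.0222) and Rpl41, the shortest member, by 0.31 (adjusted p 0.04). Rpl6, a large-subunit protein of 296 codons, was the long exception, at -0.22 (adjusted p 0.0381).

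**Figure D1:**
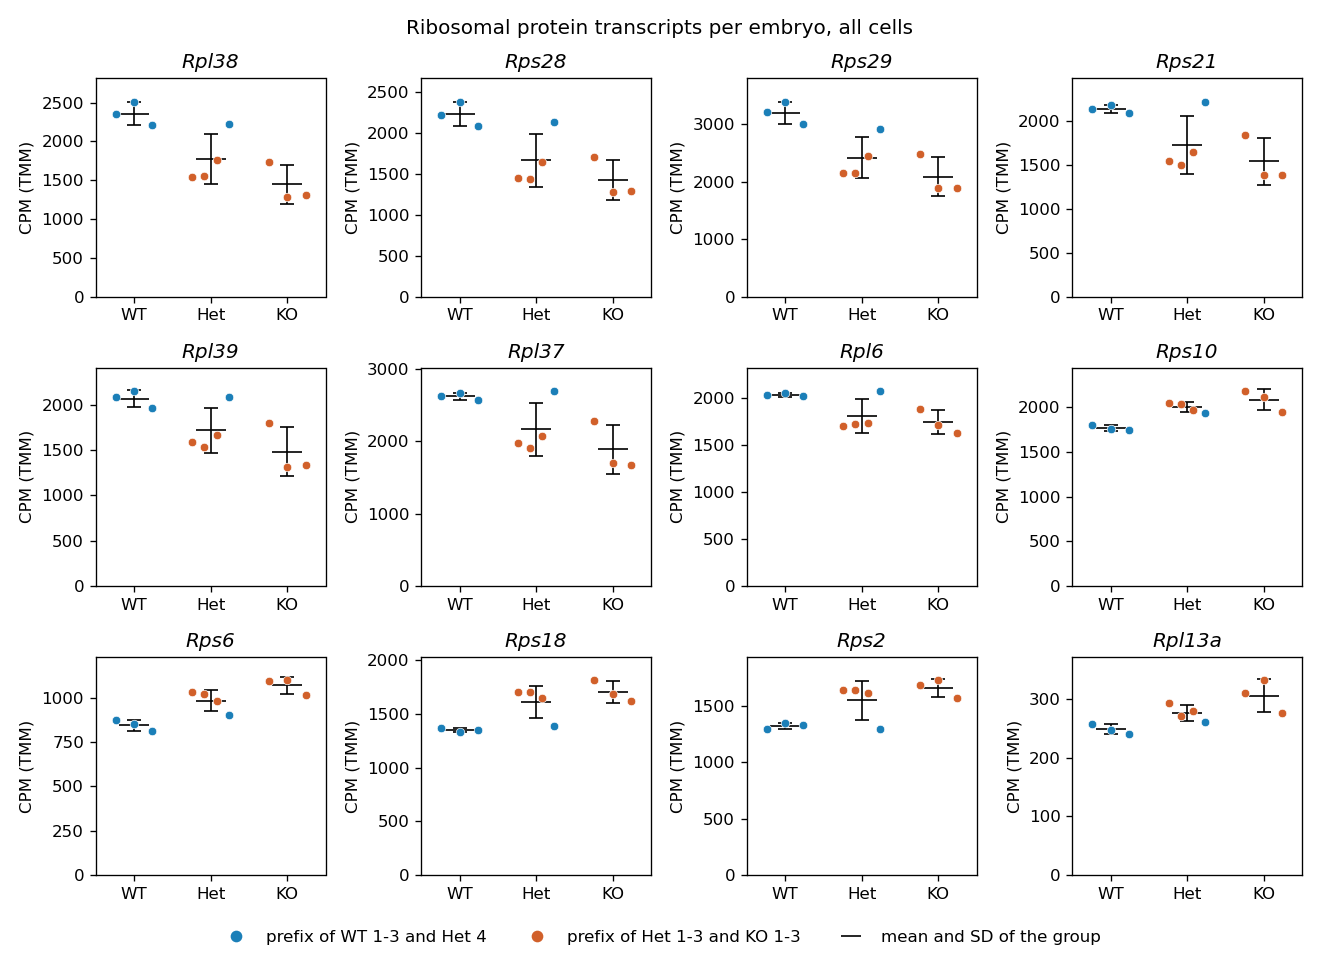
Level of 12 ribosomal protein transcripts in each embryo (vertical axes, TMM-normalized CPM over all cells, each from 0), with the mean and SD of the WT, Het and KO groups. Points are coloured by library-name prefix. For Rpl38, the blue Het replicate 4 at 2231 CPM lies with WT, and the orange Het embryos at 1546 to 1758 CPM lie with KO.

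The members that rose most were Rps6, Rps18, Rps2, Rpl13a and Rpl29. Rps6, the ribosomal substrate of the S6 kinases, was at 873 CPM, 852 CPM and 812 CPM in WT, 1032 CPM, 1020 CPM, 980.3 CPM and 900.4 CPM in Het replicates 1 to 4, and 1094 CPM, 1099 CPM and 1015 CPM in KO. Every mutant embryo was above every WT embryo, with Het replicate 4 the lowest of the mutants, and the KO against WT difference was 0.34 (SE 0.0574, adjusted p 0.00125). Rps18, of the head of the small subunit, was at 1373 CPM, 1331 CPM and 1353 CPM in WT, 1711 CPM, 1707 CPM, 1648 CPM and 1392 CPM in Het, and 1816 CPM, 1688 CPM and 1619 CPM in KO (log2 difference 0.34, adjusted p 0.00481). Rps2 was at 1294 CPM, 1346 CPM and 1325 CPM in WT, 1637 CPM, 1640 CPM, 1612 CPM and 1288 CPM in Het, and 1682 CPM, 1724 CPM and 1571 CPM in KO (0.33, adjusted p 0.00943). Het replicate 4 lay just above the WT range for Rps18 and just below it for Rps2, and the other Het embryos lay within the KO range. Rpl13a rose by a log2 fold change of 0.30 (adjusted p 0.00483), Rpl29 by 0.25 (adjusted p 0.00298) and Rps10, which sits near the mRNA entry channel, by 0.24 (adjusted p 0.00292).

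Between the prefixes at equal genotype, few members were called by edgeR, a share near that of all genes. Het replicates 1 to 3 against Het replicate 4 had 3 members called, against a background of 4.69% (2.47% higher, 2.22% lower). Rps2 was higher by 0.34 (adjusted p 0.0149) and Rps18 by 0.28 (adjusted p 0.0337), and Rpl6 was lower, at -0.27 (adjusted p 0.0425). A further 15 members had an unadjusted p under 0.05. Rps21 was at -0.50 (adjusted p 0.0519), Rps28 at -0.50 (adjusted p 0.073) and Rpl38 at -0.46 (adjusted p 0.0908), none of them past the threshold. Het replicate 4 is a lone library and was assumed to vary like the others. In the fit over all 10 libraries with allele number as a covariate, the prefix had 5 members called, against 8.02% of all genes (4.41% higher, 3.6% lower). These were Rps2 (0.32) and Rps18 (0.29), higher in the prefix of KO, and Rps28 (-0.49), Rps21 (-0.48) and Rpl6 (-0.27), lower in it. DESeq2 called 6 members within Het, against 7.98% of all genes, and 13 in the fit with allele number, against 11.7%, a share above the background.

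By rank alone, 20 members lay higher in all 6 libraries of the KO prefix than in all 4 of the WT prefix and 16 lay lower, where 37.1% of all genes at that level were separated. Unlike the comparison within Het, these sets differ in genotype as well, since 1 holds the KO and the other the WT embryos. The 16 lower members included Rpl38, Rps28, Rps29, Rps21, Rpl37, Rpl39, Rpl41 and Rps27, and the 20 higher ones included Rps2, Rps6, Rps10, Rps18, Rpl13a and Rpl29. Without KO replicate 1, the count called between prefixes within Het was 18, with 16 lower, against a background of 4.06%, and that in the fit with allele number was 11, against 5.97%. Without Het replicate 4, which is needed to tell the prefixes apart, the latter was 0 (0.597%). Without KO replicate 3 the latter was 8 (7.49%). Without any of Het replicates 1 to 3 it was 1 or 2 (2.28% to 4.58%), and the count within Het was 0 or 1 (0.835% to 2.83%). The count within Het was also 1 without WT replicate 1 (3.89%) or WT replicate 3 (3.26%) and 2 without WT replicate 2 (4.1%).

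Within a prefix, no member was called. Between KO and Het replicates 1 to 3, 0 of 81 members passed and 0 had an unadjusted p under 0.05, where edgeR called 8.87% of all genes (4.24% higher, 4.64% lower). DESeq2 also called 0 members, where it called 1867 of 17647 genes. The KO and Het ranges overlapped for all 80 members above 50 CPM, and 29.1% of all genes at that level did not overlap. The difference of Rpl38 was -0.16 (95% interval -0.39 to 0.07) and that of Rps28 was -0.08 (-0.31 to 0.14). Rps6 differed by 0.08 (-0.01 to 0.18). The 95% interval lay within 0.5 of 0 on the log2 scale for all 80 members and within 0.25 for 69.

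That count of 0 rested on KO replicate 1. Without it, 17 members were lower in KO and none higher, against a background of 7.18%. Rpl38 was then at -0.31 (adjusted p 0.0216), Rpl39 at -0.27 (adjusted p 0.0118), Rps29 at -0.25 (adjusted p 0.0461), Rpl41 at -0.23 (adjusted p 0.0128), Rpl37 at -0.23 (adjusted p 0.0099) and Rps21 at -0.17 (adjusted p 0.0452). Rps28, at -0.23, stayed outside the threshold (adjusted p 0.0692). All 17 encode proteins of at most 130 codons. Without each of the other 9 libraries the count was 0.

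Het replicate 4 against WT had 0 members called by edgeR, against 0.238% of all genes (0.108% higher, 0.13% lower). There 3 members had an unadjusted p under 0.05. DESeq2 also called 0 members, where it called 282 of 17647 genes. Rpl38 differed by -0.08 (95% interval -0.41 to 0.24), Rps28 by -0.07 (-0.39 to 0.25) and Rps6 by 0.09 (-0.04 to 0.22). These intervals are wider than those of KO against Het, since they rest on 1 Het library. Most members lay slightly higher in that library: 74 of 81 were at a positive value and 7 at a negative one. Their median log2 difference was 0.07, against -0.002 over all genes.

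The effect of each mutant allele, taken within the prefixes, had 0 members called and 6 with an unadjusted p under 0.05, where edgeR called 11.9% of all genes (6.24% higher, 5.68% lower). By DESeq2 it had 2, both higher, Rpl5 among them, against 14.6%. Per allele, Rpl38 was at -0.14 (95% interval -0.31 to 0.04), Rps28 at -0.08 (-0.25 to 0.10) and Rps6 at 0.08 (0.01 to 0.16, adjusted p 0.129). The count rested on single KO libraries, and the direction of the calls differed with the library left out. Without KO replicate 1 it was 2, both lower (Rpl38 and Rps29), against 8.76%, and without KO replicate 3 it was 7, all higher, against 8.44%.

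Het against WT, over both prefixes, had 2 members called, against 4.73% of all genes (2.58% higher, 2.14% lower). Rps6 was higher by 0.22 (adjusted p 0.0463) and Rps10 by 0.18 (adjusted p 0.0471), and 45 members had an unadjusted p under 0.05. The background applies to the adjusted p only. Rps10 was at 1805 CPM, 1757 CPM and 1749 CPM in WT and at 2055 CPM, 2042 CPM, 1968 CPM and 1939 CPM in Het replicates 1 to 4, so that every Het embryo was higher. Without Het replicate 4 the count was 35, with 25 higher and 10 lower, against a background of 22.5%. Without each of 8 other libraries it was 0, against 0.442% to 2.4%, and without KO replicate 3 it was 2 (2.02%). DESeq2 called 24, 23 of them higher, against 12.6%.

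**Figure D2:**
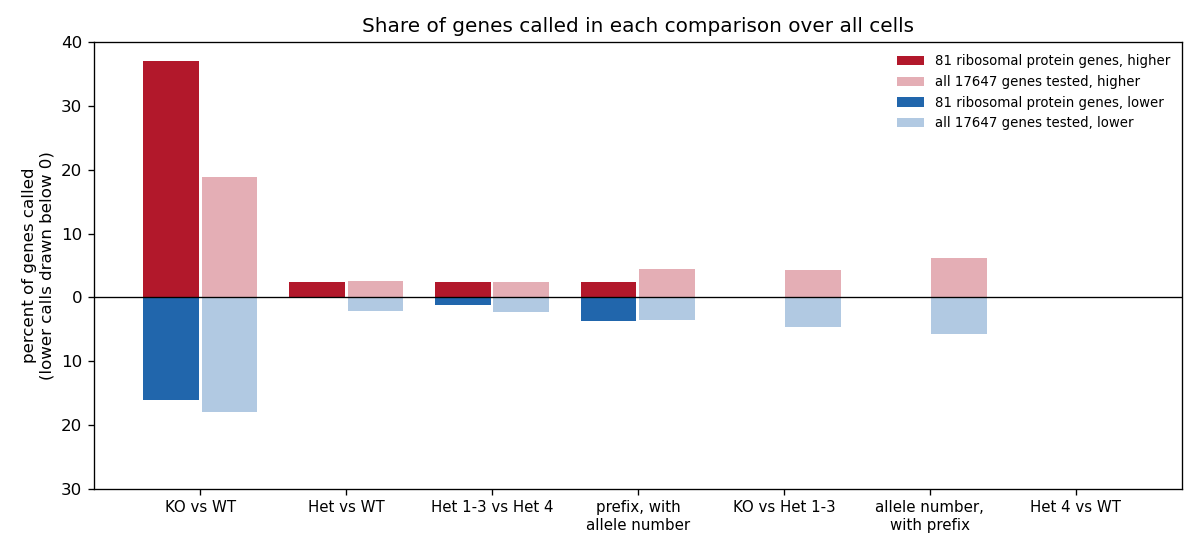
Percent of the 81 ribosomal protein genes (dark bars) and of all 17647 genes tested (light bars) called higher (above 0) or lower (below 0) at an adjusted p under 0.05 in each comparison over all cells. In KO against WT the higher share of members exceeds that of all genes, and in KO against Het replicates 1 to 3 and in the effect of allele number no member is called.

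Coding length ordered the differences between KO and WT. Length was taken from the GENCODE vM21 annotation of GRCm38. Of the 11 members of at most 100 codons, 9 were lower and 1, Rps27l, was higher. The remaining one was the nearly silent Rpl39l. Of the 28 members of 100 to 150 codons, 3 were higher and 3 lower. Of the 19 members of 150 to 200 codons, 13 were higher and none lower, and of the 23 longer ones, 13 were higher and only Rpl6 lower. Median log2 fold changes in the 4 length classes were -0.47, -0.04, 0.18 and 0.15. Across the 80 members above 50 CPM, the log2 of codon number and the log2 fold change correlated with a Pearson r of 0.70 and a Spearman rho of 0.68. These are descriptions across genes of the same libraries, which are not independent replicates.

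Length also ordered the 80 members between the prefixes within Het and in KO against Het replicates 1 to 3, but less so in Het replicate 4 against WT. Between the prefixes within Het, r was 0.68 and rho 0.67. In KO against Het replicates 1 to 3, r was 0.69 and rho 0.72, although the medians ran only from -0.08 in the shortest class to 0.02 in the longest. In Het replicate 4 against WT, r was 0.23 and rho 0.08. Genes outside the family differed by comparison. Over 1676 other genes above 100 CPM, r was -0.06 and rho -0.21 in KO against WT, and over the 698 of them under 300 codons r was 0.06 and rho 0.09. Between the prefixes within Het, r was -0.30 and rho -0.46 over the 1676 genes, and 0.03 and -0.04 over the 698. Of 104 such genes of at most 100 codons, 28 were higher and 21 lower in KO against WT, with a median of 0.01. Longer ones were more often higher, as the longer members were: 77 of 190 at 100 to 150 codons (14 lower, median 0.11), 67 of 165 at 150 to 200 (18 lower, median 0.11) and 100 of 239 from there to 300 (18 lower, median 0.09). In KO against Het replicates 1 to 3, by contrast, other genes also ran with length. The 104 of at most 100 codons had a median of -0.07, with 85 at a negative value, close to the -0.08 of the members, and those over 200 codons had a median of 0.01. There r was 0.15 and rho 0.29 over the 1676 genes. Mitochondrial ribosomal protein genes, which encode proteins of the separate ribosome of that organelle, had an r of -0.15 in KO against WT, of -0.20 between the prefixes within Het and of 0.21 in KO against Het replicates 1 to 3, over 78 genes.

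**Figure D3:**
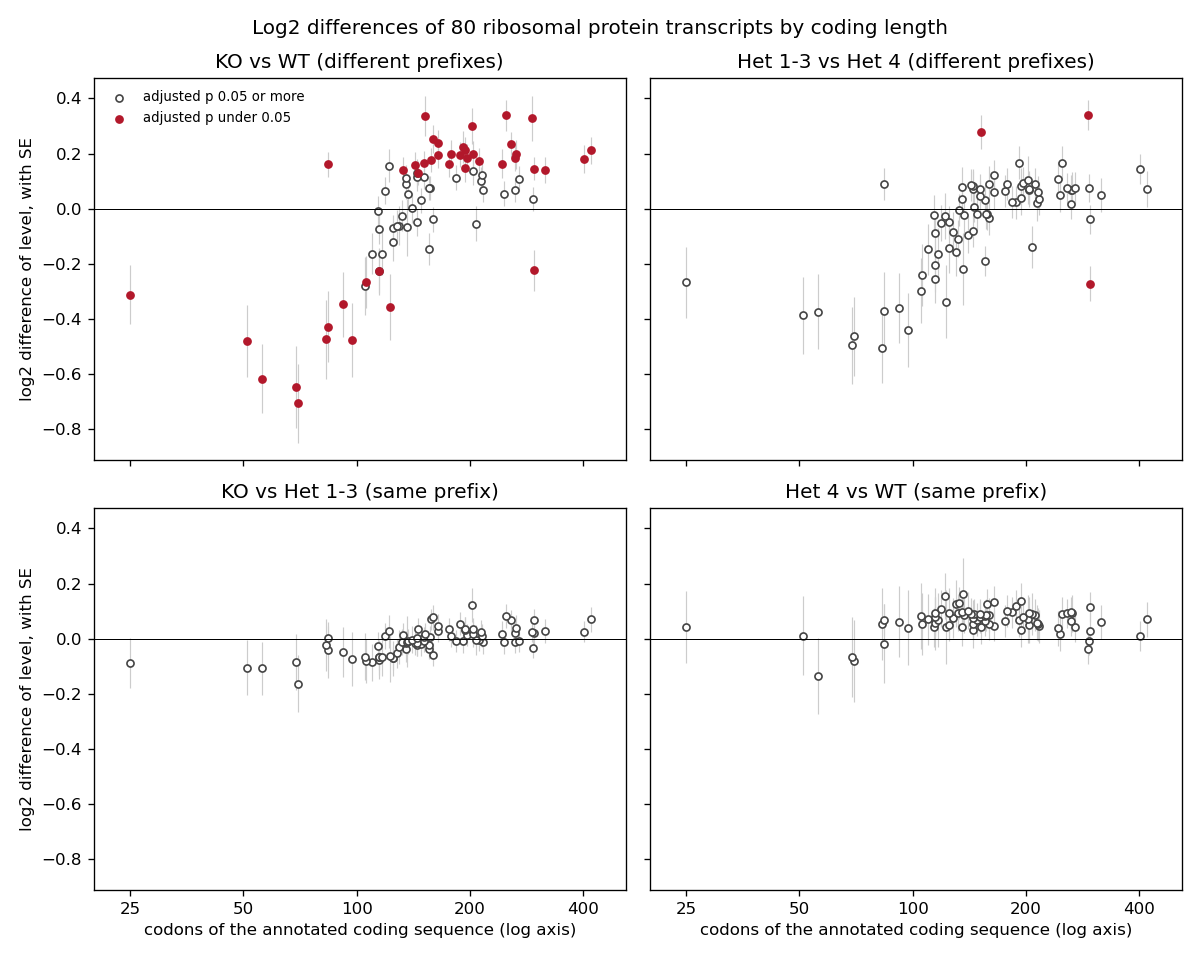
Log2 differences with SE (vertical axes) of 80 ribosomal protein transcripts against the codons of their coding sequence (horizontal log axes), in 4 comparisons. Filled red points passed an adjusted p of 0.05. In KO against WT, points under 100 codons reach -0.71, and in KO against Het replicates 1 to 3 the lowest point is at -0.16.

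Summed over members, the short ones took up less of the transcriptome in the KO prefix. Members of at most 100 codons made up 2.17%, 2.24% and 2.10% of UMIs in WT and 2.13% in Het replicate 4. They made up 1.55%, 1.52% and 1.69% in Het replicates 1 to 3 and 1.77%, 1.34% and 1.39% in KO. The ranges of the prefixes did not overlap, and KO overlapped Het replicates 1 to 3. Members over 200 codons made up 3.46% to 3.54% in WT, 3.62% in Het replicate 4, 3.57% to 3.70% in Het replicates 1 to 3 and 3.57% to 3.78% in KO.

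The share of UMIs from all members together overlapped between the groups. The share was 13.6%, 13.4% and 13.4% in WT (13.5% ± 0.113, SD, n = 3), 13.2%, 13.0%, 13.1% and 13.9% in Het replicates 1 to 4 (13.3% ± 0.424, n = 4), and 13.8%, 12.7% and 12.5% in KO (13.0% ± 0.680, n = 3). KO replicate 1 lay above every WT embryo and the other KO embryos below, so the groups overlapped. KO differed from WT by -0.439 percentage points and from Het replicates 1 to 3 by -0.0721, against a pooled SD within group and prefix of 0.404. As a mean over cells KO differed from WT by -0.0273. Without single embryos the values were -0.827 to -0.194 and -0.460 to 0.173, so the latter changed sign. Small-subunit members alone made up 5.95% to 6.05% in WT and 5.66% to 6.20% in KO, and large-subunit members 7.44% to 7.55% and 6.88% to 7.61%. These are shares of UMIs, in which a lower level of the members and a higher level of other transcripts cannot be told apart.

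Cells were grouped into classes by marker genes, and 11 classes with at least 20 cells in every embryo were tested. Names follow the markers, and 4 clusters were left unnamed, with marker scores that were low, conflicting or from shallow cells. The conflicting cluster, of 524 cells, scored 1.253 for layer II-IV neurons and 0.754 for interneurons, with 6 interneuron markers among its leading genes. Of the endothelial-like cells, 347 of 721 came from Het replicate 3, and the ganglionic eminence progenitor-like class was led by mitosis genes. The radial glia-like class scored 3.294 for radial glia and, close to that, 3.098 for oligodendrocyte precursors. In WT the ribosomal protein share was highest in microglia-like cells (20.3% ± 1.09, SD, n = 3) and lay at 16.8% ± 0.190 in intermediate progenitor-like, 16.45% ± 0.284 in endothelial-like, 16.1% ± 0.550 in radial glia-like and 15.7% ± 0.636 in ganglionic eminence progenitor-like cells. Neighbours among these last 4 overlapped in their embryos. Neurons were lower, at 13.8% ± 0.0797 in layer II-IV neuron-like, 13.5% ± 0.167 in striatal inhibitory neuron-like, 12.8% ± 0.195 in layer V-VI neuron-like, 11.8% ± 0.446 in interneuron-like and 11.4% ± 0.189 in Cajal-Retzius neuron-like cells. Of these, the interneuron-like and Cajal-Retzius neuron-like ranges overlapped and the others did not. Erythroid-like cells, whose mRNA is mostly globin, were at 2.73% ± 0.266.

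Inside the classes, KO embryos were all below WT embryos in 3 of the 11 classes. In layer II-IV neuron-like cells KO was at 12.8% ± 0.728 against 13.8% ± 0.0797, in interneuron-like cells at 10.8% ± 0.701 against 11.8% ± 0.446, and in erythroid-like cells at 1.25% ± 0.291 against 2.73% ± 0.266 (n = 3 each). In interneuron-like cells the highest KO and the lowest WT embryo were both at 11.5% after rounding. In layer II-IV neuron-like cells Het replicates 1 to 3 lay within the KO range, at 13.15% to 13.22%. Het replicate 4 lay beside WT there, at 13.96%. With 3 embryos per group and 11 classes, chance can separate the groups. In the other 8 classes the groups overlapped. In radial glia-like cells, for instance, KO was at 16.8% ± 0.428 and WT at 16.1% ± 0.550. The erythroid-like cells of Het replicate 4 stood apart at 5.39%, and that embryo had the fewest such cells, 1.16% of its cells against 1.73% to 3.28% elsewhere.

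**Figure D4:**
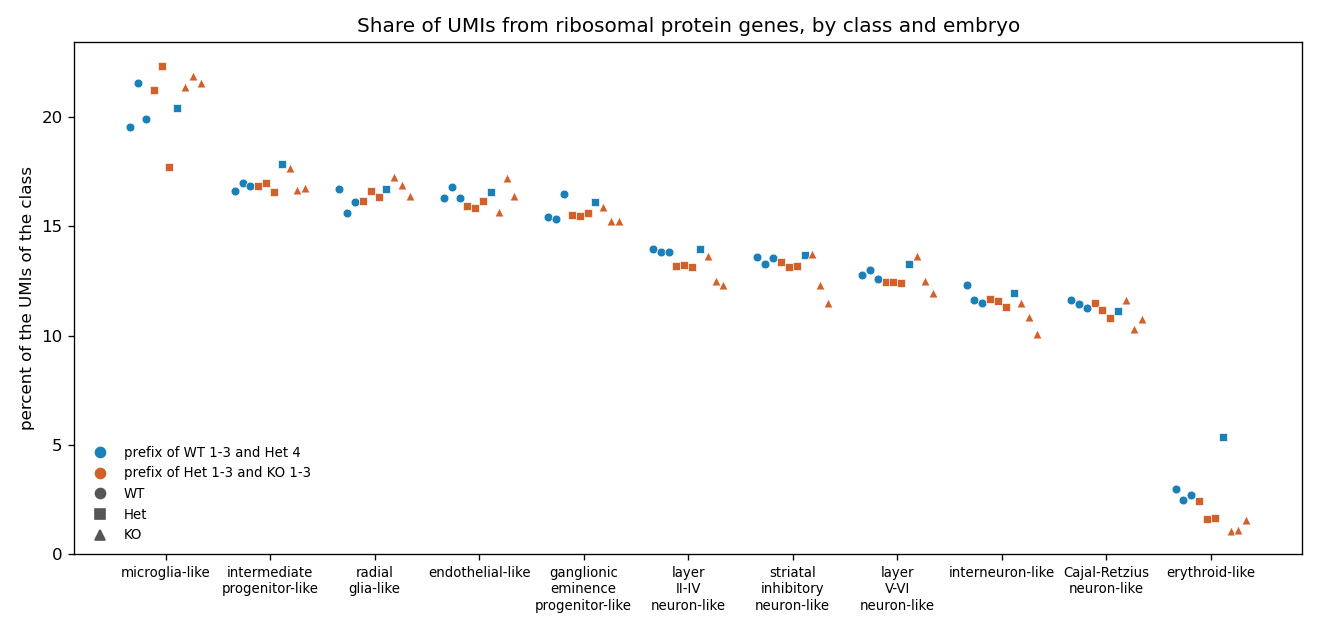
Percent of the UMIs of each class that came from ribosomal protein genes (vertical axis from 0) in each embryo, for 11 classes in order of the share. Circles are WT, squares Het and triangles KO, and colours give the library-name prefix. Microglia-like cells lie near 20% and erythroid-like cells under 6%.

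Members differed in how even they were across classes. Among the 80 members above 50 CPM, the ratio of the highest to the lowest class level (CPM within the class, mean of the 3 WT embryos), without erythroid-like cells, ran from 1.46 to 3.43 with a median of 1.82. Rps27l, the paralog of Rps27, had the largest ratio, with 398 CPM in radial glia-like and 116 CPM in striatal inhibitory neuron-like cells. Rpl22l1, the paralog of Rpl22, came next, with 803 CPM in radial glia-like and 275 CPM in striatal inhibitory neuron-like cells (ratio 2.93). Both were thus highest in radial glia-like cells. The levels per embryo within classes are scaled differently from those behind the ratios. On that scale Rpl22l1 was at 817 CPM, 804 CPM and 739 CPM in radial glia-like cells of WT. It was higher in Cajal-Retzius neuron-like cells (779 CPM, 715 CPM and 666 CPM in WT) than in intermediate progenitor-like cells (470 CPM, 496 CPM and 466 CPM). Rpl12, of the stalk base, had a ratio of 2.83, Rpl22 of 2.65 and Rplp1 of 2.63, each highest in microglia-like cells. That class also had the highest ribosomal protein share in WT, and the ratios were not set against that share. With erythroid-like cells included, the largest ratios were 19.2 for Rps27l and 18.2 for Rpl22l1.

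Of the paralogs above 50 CPM, Rps27l was called in the direction opposite to its parent. Rps27l was at 173 CPM, 174 CPM and 169 CPM in WT, 199 CPM, 184 CPM, 193 CPM and 180.3 CPM in Het and 202 CPM, 188 CPM and 186 CPM in KO. It was higher in KO by 0.16 (adjusted p 0.0189), and Rps27, of the same coding length, was lower. Rpl22l1 was at 391 CPM, 412 CPM and 379 CPM in WT and 485 CPM, 411 CPM and 421 CPM in KO (log2 difference 0.16, adjusted p 0.0595), and Rpl22 was at -0.06 (adjusted p 0.419). Neither passed the threshold. Rpl7l1 (0.05, adjusted p 0.374) and Rpl7 (0.11, adjusted p 0.0869) also did not. The difference between a paralog and its parent was not tested. Rpl3 was higher by 0.18 (adjusted p 0.0184), Rpl10 was at 0.10 (adjusted p 0.116) and Rps4x at 0.07 (adjusted p 0.234), and their paralogs Rpl3l and Rpl10l were close to 0. Rpl39l ranged from 0.0123 to 0.518 CPM and was at -1.43 (adjusted p 0.144).

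Within classes, KO and WT again differed in many members. Calls were most frequent in radial glia-like cells, with 60 of 80 members (50 higher, 10 lower, background 22.7%), and in intermediate progenitor-like cells, with 54 (45 higher, 9 lower, background 19.0%). Layer V-VI neuron-like cells had 43 (35 higher, 8 lower, background 30.6%), ganglionic eminence progenitor-like cells 36 (25 higher, 11 lower, background 11.3%) and layer II-IV neuron-like cells 36 (14 higher, 22 lower, background 43.5%). In these last cells the members' share was near the background. In inhibitory and Cajal-Retzius neurons the calls by edgeR were all lower, 14 in interneuron-like (9.82%), 14 in striatal inhibitory neuron-like (12.1%) and 11 in Cajal-Retzius neuron-like cells (5.22%). DESeq2 called 19 in interneuron-like cells, 2 of them higher, against 10.3% of all genes. Endothelial-like, erythroid-like and microglia-like cells had 0 by edgeR, where 0%, 0.898% and 0.189% of all genes were called. There 33, 3 and 36 members had an unadjusted p under 0.05, and DESeq2 called 1, 1 and 3, against 0.0686%, 2.02% and 3.6% of all genes. Differences between classes were not tested.

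Rpl38 was called lower in KO against WT in 8 classes, from -0.55 (adjusted p 0.00197) in radial glia-like to -0.78 (adjusted p 0.00754) in interneuron-like cells. In the remaining 3 it was at -0.42 in endothelial-like (adjusted p 0.99), -0.50 in microglia-like (adjusted p 0.118) and -0.60 in erythroid-like cells (adjusted p 0.569). In radial glia-like cells its levels were 2224 CPM, 2198 CPM and 2032 CPM in WT, 1436 CPM, 1509 CPM, 1678 CPM and 2042 CPM in Het replicates 1 to 4, and 1678 CPM, 1364 CPM and 1373 CPM in KO. As over all cells, Het replicate 4 lay among the WT embryos and KO replicate 1 was the highest KO embryo. With the prefix and allele number fitted together, members called for the prefix numbered 12 in intermediate progenitor-like cells (2 higher, 10 lower, background 1.23%), 7 in layer II-IV neuron-like (5.5%), 6 in layer V-VI neuron-like (2.98%), 5 in ganglionic eminence progenitor-like (1.56%), 2 in radial glia-like (0.521%) and 1 in Cajal-Retzius neuron-like cells (0.569%). They numbered 0 by edgeR in the other 5 classes, with 3 to 18 at an unadjusted p under 0.05. Of these classes, DESeq2 called 6 members in interneuron-like cells (3 higher, 3 lower) and 1 in striatal inhibitory neuron-like cells. In the classes with edgeR calls, DESeq2 called 12 in intermediate progenitor-like, 12 in ganglionic eminence progenitor-like and 10 in radial glia-like cells. It called 8 in layer V-VI neuron-like, 6 in layer II-IV neuron-like and 5 in Cajal-Retzius neuron-like cells. Shares of all genes by DESeq2 are not given for these fits. In the 5 classes without edgeR calls of members, edgeR called 0% to 0.686% of all genes (0.0321% in erythroid-like, 0.0209% in microglia-like and 0.3% in interneuron-like cells). These shares are not a background for the DESeq2 counts.

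Within a prefix, calls inside classes were few, and all of them were higher. KO against Het replicates 1 to 3 had 2, both in layer V-VI neuron-like cells, against a background of 11% there. They were a smaller share of the members than that of all genes. Rpl18, of the large subunit, was among them and is named because the count is small. It was at 1142 CPM, 1155 CPM and 1158 CPM in WT, 1270 CPM, 1277 CPM, 1209 CPM and 1270 CPM in Het replicates 1 to 4, and 1523 CPM, 1436 CPM and 1310 CPM in KO, a rise of 0.18 (adjusted p 0.0383). Every KO embryo was above every other embryo, and Het replicate 4 was above every WT embryo. In the other 10 classes edgeR and DESeq2 called 0 members, where edgeR called 0% to 18.2% of all genes. Shares of all genes by DESeq2 are not given for them. The background was 18.2% in layer II-IV neuron-like, 3.62% in intermediate progenitor-like, 3.26% in radial glia-like, 1.26% in Cajal-Retzius neuron-like, 0.668% in striatal inhibitory neuron-like, 0.39% in interneuron-like and 0.194% in ganglionic eminence progenitor-like cells, and 0% in the remaining 3. The members with an unadjusted p under 0.05 in those classes numbered 0 to 21, the 21 being lower in erythroid-like cells, and radial glia-like cells had 19, all higher.

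The effect of allele number within the prefixes was called for 9 members in layer V-VI neuron-like cells (background 10.8%), 5 in intermediate progenitor-like (4.88%) and 2 in radial glia-like cells (4.99%), all higher. In the other 8 classes it was 0 by edgeR, against backgrounds of 20.3% in layer II-IV neuron-like, 1.77% in Cajal-Retzius neuron-like, 1.25% in striatal inhibitory neuron-like, 0.455% in ganglionic eminence progenitor-like and 0.405% in interneuron-like cells and 0% in the rest, with 0 to 7 members at an unadjusted p under 0.05, and DESeq2 called 1 there, in erythroid-like cells. Rpl18 was at 0.17 per allele in the first of these classes (adjusted p 0.0162), and Rps6 was at 0.14 (adjusted p 0.0439). Rpl22l1 was called in radial glia-like cells (0.17, adjusted p 0.0438). By edgeR, the counts in the classes with calls were near the background share or below it, and the backgrounds are not split by direction. DESeq2 called 10 members in intermediate progenitor-like, 13 in layer V-VI neuron-like and 5 in radial glia-like cells, all higher. The first of these was above its share of all genes, given at the end. In these classes 38, 26 and 30 members had an unadjusted p under 0.05, all of them higher. No share of all genes at that threshold stands beside them. The edgeR counts within classes turned on single KO embryos too. Without KO replicate 1, KO against Het replicates 1 to 3 had 30 members lower in layer II-IV neuron-like (background 15.5%), 19 lower in striatal inhibitory neuron-like (0.959%) and 6 lower in layer V-VI neuron-like cells (8.23%), with none higher in any class, Rpl18 included. Further lower calls without that embryo lay in classes not listed here. Without KO replicate 3, 20 were higher in layer V-VI neuron-like cells (8.73%) and none were called elsewhere.

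**Figure D5:**
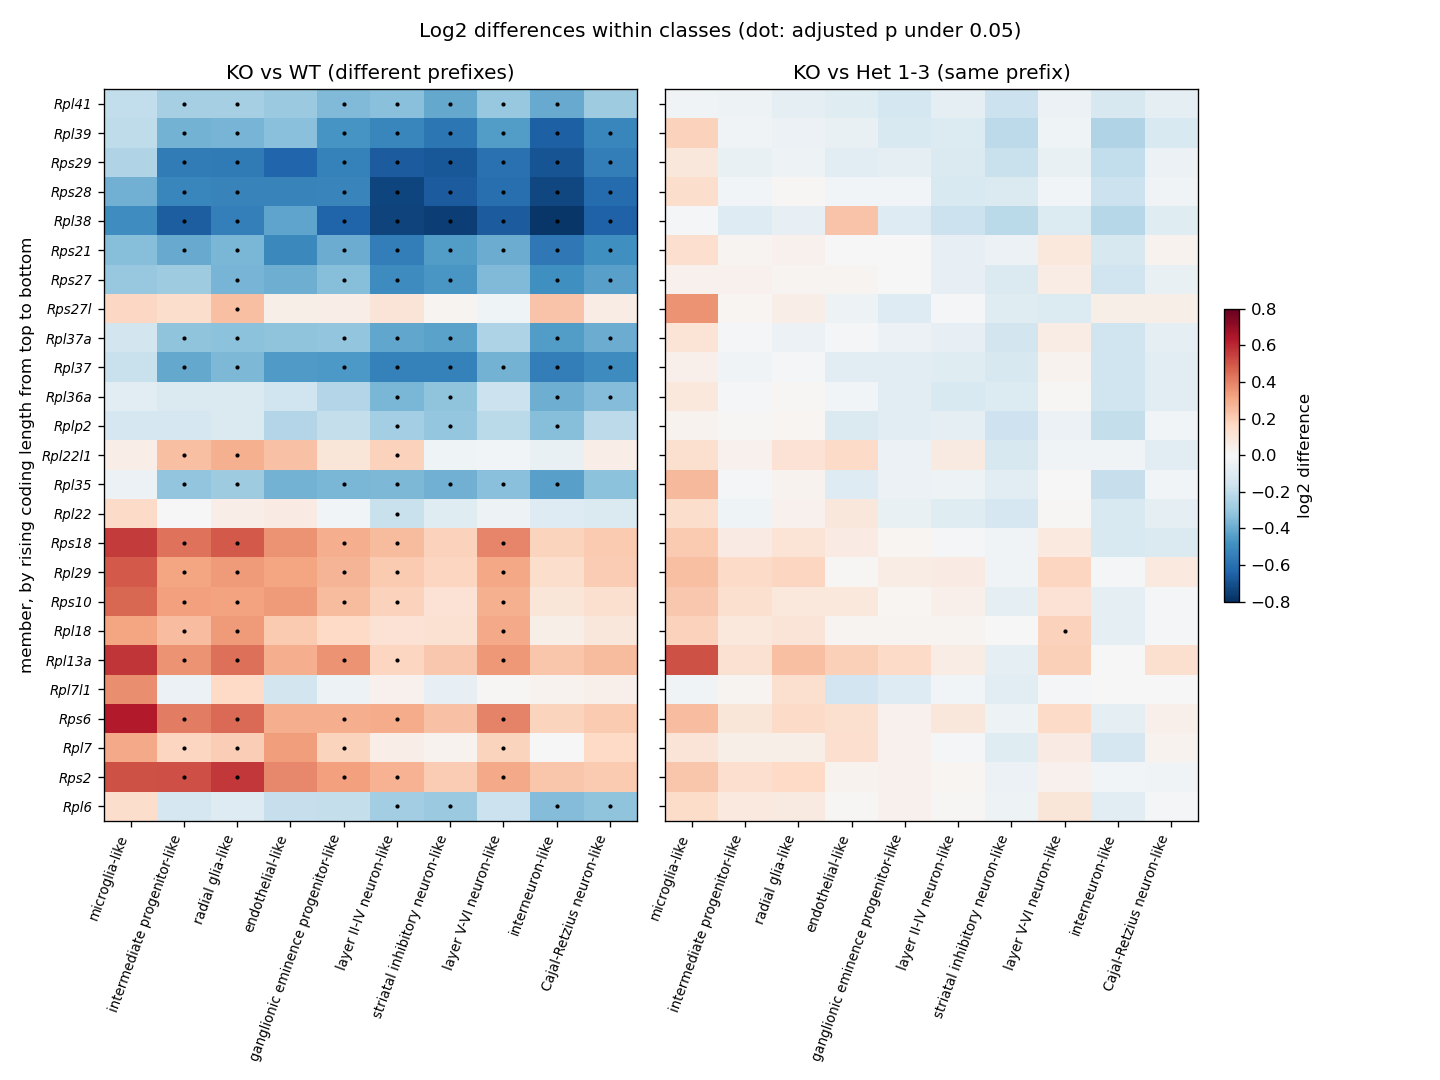
Log2 differences of 25 named ribosomal protein transcripts (rows, by rising coding length from top to bottom) in 10 classes (columns), for KO against WT (left) and KO against Het replicates 1 to 3 (right). Dots mark an adjusted p under 0.05. Most short transcripts are blue and most long ones red on the left, and the right panel is pale, with a dot for Rpl18 in layer V-VI neuron-like cells.

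Among factors that build ribosomes, lower calls prevailed in KO against WT. Of 32 biogenesis factors, 13 were lower and 1 higher, with a median of -0.08, where 17.9% of all genes were lower and 18.9% higher. Wdr12, of the PeBoW complex that matures the large subunit, was at -0.25 (adjusted p 0.000405), and Nop16 was at -0.25 (adjusted p 0.00122). Both were also called for allele number within the prefixes, at -0.11 (adjusted p 0.0201) and -0.12 (adjusted p 0.0332) per allele, and no other of the 32 was, where 11.9% of all genes were called. In KO against Het replicates 1 to 3 (background 8.87%), only Wdr12 was called (-0.13, adjusted p 0.0305). Nop16 was at -0.14 there (adjusted p 0.0514). The prefix fitted with allele number called 8 of the 32, 4 higher and 4 lower, against 8.02%. Of 18 translation factors and other transcripts with a terminal pyrimidine tract, 8 were higher in KO and 1 lower, against the same backgrounds, and none was called against Het replicates 1 to 3 by edgeR (background 8.87%), with 3 at an unadjusted p under 0.05. Eef1b2, an exchange factor of elongation, was at 0.33 (adjusted p 0.000668), and it was the 1 called for allele number, at 0.10 (adjusted p 0.0483).

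Of 10 regulators, 2 were higher and 5 lower in KO against WT, where 18.9% and 17.9% of all genes were. Myc, a transcription factor that drives ribosome production, was at -0.69 (adjusted p 0.00115), and its relative Mycn was at 0.21 (adjusted p 0.0175). Within the prefix they were at -0.70 (adjusted p 0.00161) and 0.21 (adjusted p 0.0396) in KO against Het replicates 1 to 3. Of 78 mitochondrial ribosomal protein genes, 31 were higher and 4 lower in KO against WT, against the same backgrounds, and 1 was called, lower, in KO against Het replicates 1 to 3 (8.87%). The prefix fitted with allele number called 17 of them, 15 higher, against 8.02% of all genes.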

How the data were processed

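Reads were aligned to mm10 by the authors with Cell Ranger, version 6.0.2 per the file headers and an earlier release per the methods. The deposited matrices, 1 per embryo, hold unnormalized counts of UMIs. The limits of the study's methods (1000 UMIs as the minimum, 10% mitochondrial UMIs as the maximum) left 65779 of 80071 barcodes, between the cell numbers given in the Results and the methods of the study. These cells were clustered with scanpy 1.11.5 on 2000 variable genes, members left out, and named from markers. Doublets scored by Scrublet were kept, and removed in an alternative.

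Sums of UMIs per embryo, for all cells and for each class, were tested with the quasi-likelihood test of edgeR 4.0.16 after filterByExpr and TMM, with Benjamini-Hochberg adjustment over all genes tested and calls at an adjusted p under 0.05. The study itself tested single cells. A fit of 4 sets (WT, Het replicate 4, Het replicates 1 to 3, KO) gave comparisons within and between prefixes, a fit of prefix plus number of mutant alleles gave the effect of each, and a fit of genotype gave the rest. Fold changes are log2, and p-values measure the spread between these embryos. Counts at an unadjusted p have no share of all genes at that threshold beside them. The fits were also run on simulated data, whose outcome is not given here. Alternatives were DESeq2 1.42.0, other normalizations, filters and cells, and leaving out each embryo.

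The members and lists were chosen with earlier results of these data known. Named were members the study names, the 5 largest rises and falls called per comparison, the 8 shortest members, paralogs with their parents, the 5 most uneven across classes in WT, and calls where these were few. Lengths came from GENCODE vM21, since no protein table was used. Shares of all members are descriptions, without the planned permutation tests. Some results on single genes are not reported here.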

Additional observations from a re-analysis of the deposited data

Results flagged for a closer look

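Het replicate 4 stood apart from the other 3 Het embryos in 4 of the 36 results examined in this way, by the gap to its nearest neighbour as a share of the group's range (above Dixon's critical value for 4 samples). The gap was 0.963 for the ribosomal protein share in layer V-VI neuron-like cells, where Het replicate 4 had 13.3% and the others 12.4%. It was 0.906 for the share in layer II-IV neuron-like cells, at 14.0% against 13.2%. It was 0.92 for Rpl6, at 2078 CPM against 1705 to 1735 CPM, and 0.921 for Rps2, at 1288 CPM against 1612 to 1640 CPM. Het replicate 4 shares its prefix with WT. Chance alone passes this limit in about 1 of 20 groups, and the results share embryos.

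Of the members examined singly, 2 had KO embryos on opposite sides of the WT embryos in different classes. The difference was not tested. The same count over all genes was not made, and with few embryos and many classes chance can separate the groups. Rpl6 was higher in every KO embryo than in every WT embryo in 1 class, microglia-like cells, and lower in every one in the other 10 classes. Rpl22 was likewise higher in 1 class, microglia-like cells, and lower in erythroid-like cells, and overlapped in the other 9. Microglia-like cells numbered 21 to 44 per embryo. Their Rpl22 level was 1332 CPM, 1500 CPM and 1403 CPM in WT and 1546 CPM, 1662 CPM and 1512 CPM in KO.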

How the results depend on the processing

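Of 113 values that answer a comparison, recomputed under other settings than leaving out an embryo, 95 were unchanged within 1.5 times or within the spread between replicates. Of 117 when single embryos were left out, 73 were. DESeq2 called more members: 6 between prefixes within Het (7.98% of all genes), 13 for the prefix beside allele number (11.7%), 2 for allele number (14.6%), 24 in Het against WT (12.6%), and within classes 29 for allele number (10 in intermediate progenitor-like, 3.51% of all genes, 13 in layer V-VI neuron-like, 10.2%, 5 in radial glia-like, 4.63%, and 1 in erythroid-like cells, 0.545%) and 7 for KO against Het replicates 1 to 3, in layer V-VI neuron-like cells (8.57%). With equal weight per class, calls between prefixes within Het, for the prefix beside allele number and in Het against WT were 0, where at most 0.265% of all genes were called. The 2 calls of Het against WT were also 0 with a fold threshold, with no filter on low counts, with at least 3000 UMIs, with doublets removed and with only the 2 groups fitted. In that order these settings called 525 of 17647, 794 of 25580, 572 of 17614, 540 of 17420 and 175 of 17394 genes. In KO against WT a fold threshold of 0.25 left 16 calls (5 higher, 11 lower, against 24.5% of all genes). At a clustering resolution of 0.8, KO against Het replicates 1 to 3 had 6 calls within classes, all in layer V-VI neuron-like cells (12.3%). No cluster was named radial glia-like at that resolution, so that class was not tested there. As a mean over cells, the share differed between KO and WT by -0.0273 percentage points. Without erythroid-like cells, an alternative chosen after the data were seen, KO against WT called 45 (30 higher, 15 lower, 36.6% of all genes). In each case the cause was not tested.

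Leaving out each embryo in turn gave 20 to 51 calls in KO against WT (26% and 42.5% of all genes), 0 to 35 in Het against WT (22.5% at the highest), 0 to 17 in KO against Het replicates 1 to 3, 0 to 7 for allele number, 0 to 11 for the prefix beside it and 0 to 18 between prefixes within Het. Within classes, where this was added after the data were seen, it gave 0 to 62 in KO against Het replicates 1 to 3 (62 without KO replicate 1) and 1 to 40 for allele number (40 without KO replicate 3, 1 without Het replicate 3). These are sums over classes whose backgrounds differ, so no single share of all genes stands beside them. The classes behind the 40 are not broken down here. The share of UMIs from the members differed by -0.827 to -0.194 percentage points in KO against WT, by -0.367 to -0.0491 in Het against WT, by -0.460 to 0.173 in KO against Het replicates 1 to 3 and by -0.107 to 0.283 per allele.

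Of 574 values of single members under the settings other than leaving out an embryo, 521 kept direction and call, 35 lost a call and 15 gained one. Of 551 such values when single embryos were left out, 93 lost a call, 25 gained one and 11 changed sign. Among all values recomputed, a change of sign occurred for 2 genes, at adjusted p-values from 0.315 to 1. Rps21 in KO against Het replicates 1 to 3 was at 0.00803 with equal weight per class and at -0.171 to 0.0469 without single embryos. Its allele effect was at -0.0312 with the replicate block, at -1.144e-05 without erythroid-like cells, and at -0.083 to 0.049 without single embryos. Rpl37 in KO against Het replicates 1 to 3 was at -0.23 to 0.00343, and its allele effect at -0.13 to 0.0172.

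The deviations of embryos with the same replicate number from their group means correlated at -0.185 to 0.125. The Het mean pools both prefixes, so these values cannot show what such embryos shared. Whether they shared a litter or run was not tested. With the replicate number as a block, Het against WT had 45 calls (22.6% of all genes), KO against WT 55 (42%), and KO against Het replicates 1 to 3 had 0 (8.82%), as had allele number, which under the block is the same comparison. Het replicate 4 is the only embryo of its number, so the block also takes it out of the comparison, and leaving it out alone gave 35 calls in Het against WT (22.5%). The number of embryos, with 1 Het library in its prefix, limits these tests, and in classes so does depth, with as few as 21 microglia-like cells in an embryo.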
